A study of Homo sapiens with 6 samples.

Results

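The genes described here build epithelial sheets: the simple keratins KRT7, KRT8, KRT18 and KRT19, tight junction and desmosome proteins, a pair of laminin-332 chains, membrane serine proteases with their inhibitors, and a few epithelial regulators. The set holds 30 genes, chosen by symbol from the 58302 gene rows of the deposited table, and all 30 were found. They were measured by RNA sequencing in A549, an established human lung adenocarcinoma cell line, grown at passages 6-8 in medium with serum. The study has 2 groups of 3 libraries: cells transfected with SNHG5, a long non-coding RNA that hosts small nucleolar RNAs, and cells transfected with a vector. No time after transfection, vector type or clone is given in the sources used here, and the labels call the libraries biological replicates without naming separate cultures, so p-values measure the spread between these libraries. The series title names cell migration, invasion and epithelial-mesenchymal transition as its subject, and the comparison asks how SNHG5 overexpression bears on the genes of the epithelial state.

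Tight junctions seal the space between neighbouring epithelial cells. Claudins and occludin cross the membrane, junctional adhesion molecules stand beside them, and plaque proteins such as ZO-1 tie them to actin. Desmosomes couple cells mechanically, with plakophilins and desmoplakin linking the desmosomal cadherins to keratin filaments, and laminin-332, to which LAMA3 and LAMB3 contribute chains, anchors epithelial cells to the basement membrane. Loss of many of these gene products is a textbook sign of epithelial-mesenchymal transition, while laminin-332 chains are often abundant in invading carcinoma cells.

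Of the 30 genes, 22 were expressed, meaning at least 1 CPM (counts per TMM-adjusted library total, on a per-million scale) in at least 3 libraries, and the same 22 passed the count filter of the test. None of the 22 passed the threshold of 0.05 in either direction. The values nearest to it were lower in the libraries labelled overexpression: the desmosome protein DSP (1.65-fold lower) and the keratin KRT8 (1.57-fold lower), both with an edgeR adjusted p over 0.7. The other 8 genes were below that level, and 3 of them, CLDN7, RAB25 and PRSS8, had 0 counts in all 6 libraries.

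SNHG5 itself was measured at 153, 126 and 62.9 CPM in overexpression libraries 1, 2 and 3 and at 61.0, 101 and 55.1 CPM in control libraries 1, 2 and 3. The library labelled overexpression 3 thus lay within the control range, and the group difference did not pass the test (log2 fold change 0.66, SE 0.37, edgeR quasi-likelihood adjusted p = 0.746). On the leading principal component of log2 CPM, which held 46.4% of the variance, that library (score 25.2) also lay among the controls (2.07 to 54.6), away from overexpression 1 (-63.7) and 2 (-48.7). Results that rest on it are therefore given with and without it, and "overexpression" means the libraries so labelled. Because that library was singled out by its values in these data, fits without it are a description and not independent support. Library totals ran from 13378079 to 16999604 counts, and the detection floor of 3 counts was worth 0.175 to 0.218 CPM. Mitochondrial genes took 3.80% to 6.16% of counts in the overexpression group and 2.57% to 5.31% in the controls. Of 4 endothelial marker genes none was expressed, and of 7 fibroblast markers 3 were, with summed levels of 5.46 to 21.7 CPM against 10.2 to 20.4 CPM in controls. Of 6 leukocyte markers 2 were expressed, and 3, PTPRC and CD3E among them, had 0 counts in all libraries. The summed level of the 6 was 30.04 to 49.0 CPM against 85.6 to 98.4 CPM, without overlap between the groups. That sum was mostly CD68, a lysosomal protein gene that epithelial lines also express, and its part in the results was not tested.

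The expressed genes were compared with each other as RPKM, the CPM per kilobase of annotated exon, averaged over the 6 libraries. KRT7 was the most abundant at 582 RPKM (385 to 668 across libraries) and ranked 41st of the 15597 tested genes with a known length. KRT18 (311 RPKM, rank 98) and KRT8 (300.1 RPKM, rank 102), partners in the simple epithelial filament, followed with overlapping ranges. Their near equality depends on the annotated exon lengths, 6881 bases for KRT8 and 3218 for KRT18. In CPM, KRT8 was above KRT18 in each library. CLDN1, a barrier-forming claudin, came next at 127 RPKM (69.4 to 164), below the lowest KRT8 library at 184 RPKM. SPINT2 (55.7), DSP (51.1), TJP1 (43.1) and KRT19 (41.8 RPKM) formed a group whose ranges overlapped. LAMB3 stood at 28.0 RPKM and CLDN2 at 19.0 RPKM, the latter with the widest relative span of the leading 10 genes, from 5.06 to 39.8 RPKM. PKP3 (12.4) and PKP4 (11.7 RPKM) could not be separated by their ranges. The remaining 10 lay between 5.99 RPKM for ELF3 and 0.715 RPKM for CGN, with EPCAM, a classical carcinoma surface antigen, at 1.32 RPKM and rank 11867.

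**Figure D1:**
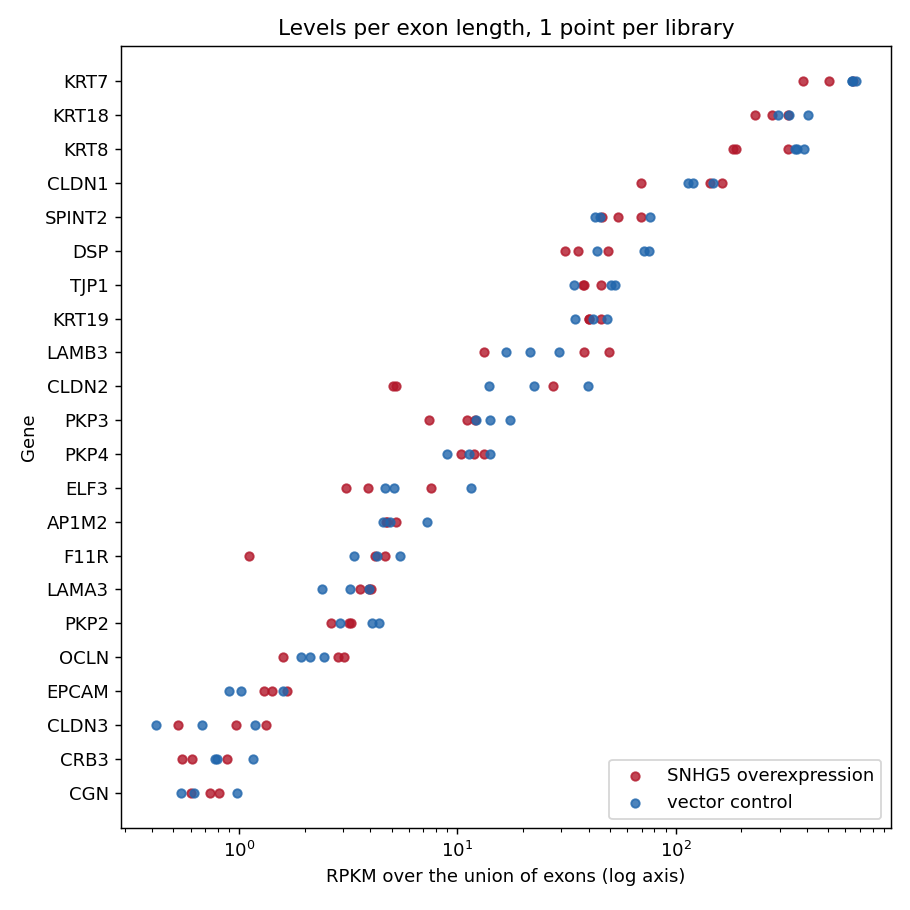
Level of each of the 22 expressed genes in each library, as RPKM on a log axis, with genes ordered by their mean and 1 point per library for the overexpression and control groups. KRT7, KRT18 and KRT8 lie highest, and CLDN3, CRB3 and CGN lie near or below 1 RPKM.

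The 8 genes that were not expressed were 3 of the 4 protease and inhibitor genes, 2 of the 4 regulators and trafficking genes, 2 claudins and 1 plaque gene, while the keratins, desmosome plaque, adhesion, polarity and laminin genes on the list were all expressed. CLDN7, a basolateral claudin, RAB25, a small GTPase of apical recycling, and PRSS8, the membrane protease prostasin, had 0 counts in all 6 libraries. CLDN4 had 6, 9 and 6 counts in overexpression libraries 1 to 3 and 8, 12 and 6 in control libraries 1 to 3. ESRP2, an epithelial splicing regulator, had 2 to 6 counts per library, ST14, the protease matriptase, had 0 to 7, and SPINT1, the inhibitor of matriptase, had 0 to 2. TJP3, which encodes the plaque protein ZO-3, had 2, 3 and 28 counts in overexpression 1 to 3 and 5, 40 and 8 in controls 1 to 3, so that it passed 1 CPM in overexpression 3 (1.63 CPM) and control 2 (2.62 CPM) alone. Of 62 companion genes of the same structures, 42 were expressed and 8 had 0 counts in all 6 libraries. GRHL2, OVOL1, TMPRSS4, MARVELD3 and CLDN18 were among those with 0, and ESRP1 had 5 counts over the 6 libraries. The protease arm of the set was thus represented by its inhibitor SPINT2 alone. CLDN7 shares 10.8% of its exon bases with AC003688.1 on the same strand, and PRSS8 11.9% with AC009088.3 on the opposite strand. These neighbours had at most 2 counts in any library, and the handling of reads in such overlaps is not given in the sources used here.

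RefSeq promoter windows, from 250 bases before to 50 bases after an annotated start on GRCh38.p14, matched 19 of the 30 genes with 30 windows. They were searched on both strands for the E-box CACCTG, the motif bound by repressors of the SNAIL and ZEB families, and for TGANTCA, the motif of AP-1. The E-box occurred in 14 of the 30 windows (46.7%), from 13 genes, against 20.6% of all 35116 windows and 19.9% of windows of protein-coding genes. The AP-1 motif occurred in 5 of the 30 windows (16.7%), against 7.71% of all windows and 6.15% of protein-coding ones. Median GC content was 64.2% in these windows, 58.7% in all windows and 62.3% in protein-coding ones, and some windows of 1 gene overlap, so the counts are a description of sequence only. The 6 windows printed here were chosen after the search, as the pair with the most E-boxes (CLDN7 and CRB3, 5 each) and windows of genes discussed in the comparison, and each is printed 5′ to 3′ in the gene's direction with motif matches in capitals.
CLDN7 promoter, chr17:7262429-7262728 (- strand): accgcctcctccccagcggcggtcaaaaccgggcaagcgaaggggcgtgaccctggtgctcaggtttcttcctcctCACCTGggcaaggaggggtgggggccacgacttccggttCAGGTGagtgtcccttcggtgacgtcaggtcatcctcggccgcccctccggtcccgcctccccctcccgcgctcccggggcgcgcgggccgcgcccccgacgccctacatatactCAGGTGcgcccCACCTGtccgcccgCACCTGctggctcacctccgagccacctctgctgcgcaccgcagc
CRB3 promoter, chr19:6464021-6464320 (+ strand): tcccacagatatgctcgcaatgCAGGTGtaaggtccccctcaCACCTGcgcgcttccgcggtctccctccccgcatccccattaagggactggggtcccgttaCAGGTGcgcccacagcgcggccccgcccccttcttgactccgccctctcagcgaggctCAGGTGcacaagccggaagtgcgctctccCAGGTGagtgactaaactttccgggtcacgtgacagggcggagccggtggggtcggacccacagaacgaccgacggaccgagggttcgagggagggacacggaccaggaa
DSP promoter, chr6:7541421-7541720 (+ strand): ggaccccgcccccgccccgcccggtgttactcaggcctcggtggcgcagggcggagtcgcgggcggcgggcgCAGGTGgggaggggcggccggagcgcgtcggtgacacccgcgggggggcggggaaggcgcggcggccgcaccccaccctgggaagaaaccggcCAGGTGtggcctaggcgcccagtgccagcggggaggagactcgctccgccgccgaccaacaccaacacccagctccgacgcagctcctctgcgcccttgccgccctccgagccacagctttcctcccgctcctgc
LAMA3 promoter, chr18:23872770-23873069 (+ strand): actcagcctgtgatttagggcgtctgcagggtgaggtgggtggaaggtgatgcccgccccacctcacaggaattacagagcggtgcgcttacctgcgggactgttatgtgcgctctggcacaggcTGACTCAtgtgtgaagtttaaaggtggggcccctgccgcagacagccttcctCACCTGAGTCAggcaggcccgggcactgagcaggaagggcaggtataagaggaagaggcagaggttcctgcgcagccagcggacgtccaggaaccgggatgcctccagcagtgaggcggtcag
LAMB3 promoter, chr1:209651325-209651624 (- strand): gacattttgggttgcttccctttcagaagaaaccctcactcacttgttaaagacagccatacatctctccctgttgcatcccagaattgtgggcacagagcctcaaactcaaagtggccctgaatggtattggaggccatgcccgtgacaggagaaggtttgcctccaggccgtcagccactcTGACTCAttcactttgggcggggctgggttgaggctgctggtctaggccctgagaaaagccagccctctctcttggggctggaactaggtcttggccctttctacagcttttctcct
CLDN2 promoter, chrX:106899914-106900213 (+ strand): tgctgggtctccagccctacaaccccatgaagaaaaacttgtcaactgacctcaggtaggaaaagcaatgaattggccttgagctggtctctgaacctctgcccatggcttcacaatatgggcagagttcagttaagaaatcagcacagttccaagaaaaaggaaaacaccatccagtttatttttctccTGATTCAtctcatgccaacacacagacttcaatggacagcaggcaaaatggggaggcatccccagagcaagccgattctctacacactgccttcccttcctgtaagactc
CLDN7, with 0 counts, and CRB3, detected at about 1 CPM, carried the same number of E-boxes. DSP, the sixth most abundant gene of the set, carried 2. In LAMA3 an E-box and the second of its 2 AP-1 motifs overlap, and the other AP-1 match stands alone. LAMB3 and CLDN2 each carried 1 AP-1 motif in the window shown. The LAMB3 windows not shown held no AP-1 motif, and 1 of them (chr1:209652376-209652675) held an E-box. The CLDN2 and CLDN7 windows not shown held neither motif. The KRT8 window (chr12:52926420-52926719) also held neither, and it lies inside the annotated gene, away from its outermost start. Expressed and unexpressed genes alike carried the motifs.

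The comparison between groups was fitted with edgeR's quasi-likelihood test over all 15631 genes that passed the count filter. Over all genes, 4 were called higher (0.0256%) and 16 lower (0.102%) at an adjusted p under 0.05. None of the 22 genes of the set was called, with adjusted p-values from 0.743 to 0.997. At an unadjusted p under 0.05 there were 0 of the 22 higher, where the share over all genes was 2.09%, and 2 lower, KRT8 and DSP, where it was 4.41%. Overexpression and control libraries did not overlap for 2 of the 22, KRT8 and PKP3, both with overexpression below, against 7.52% of all genes, and for 0 with overexpression above, against 6.04%. The median log2 fold change of the 22 was -0.18, with 13 fitted lower and 9 higher, while the median over all tested genes was 0.01 and 49.3% were fitted lower. The SE of a log2 fold change was between 0.19 and 0.70 (median 0.28). With 3 libraries a group, even the largest fitted difference of the set, CLDN2 with a log2 fold change of -1.01, did not pass. The absence of calls therefore does not exclude differences of that size.

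The replicate numbers were shared between the groups, and a fit with the number as a block called 4 genes higher (0.0256%) and 69 lower (0.441%), again with 0 of the 22, whose smallest adjusted p was 0.355 for DSP. Without overexpression 3, edgeR called 20 of 15964 genes higher (0.125%) and 144 lower (0.902%), and 0 of the 22, with a smallest adjusted p of 0.0796 for CLDN2. At an unadjusted p under 0.05 that fit gave 1 of the 22 higher, LAMB3 (8.48% of all genes), and 4 lower, KRT7, KRT8, CLDN2 and PKP3 (12.8% of all genes). Median differences of the 22 within numbered pairs were -0.28, -0.19 and -0.01 on the log2 scale for pairs 1, 2 and 3. KRT8, KRT18, F11R, DSP, PKP2 and PKP3, 6 of the 22, were lower in overexpression in each of the 3 pairs, and 0 were higher in each. Over all tested genes the shares were 17.7% lower and 17.1% higher. Both signs together gave 6 of the 22 here and 12 of the 44 tested companion genes. With signs pooled, the set's count is thus close to the background. All 6 were lower in overexpression, and this split by sign was not tested.

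**Figure D2:**
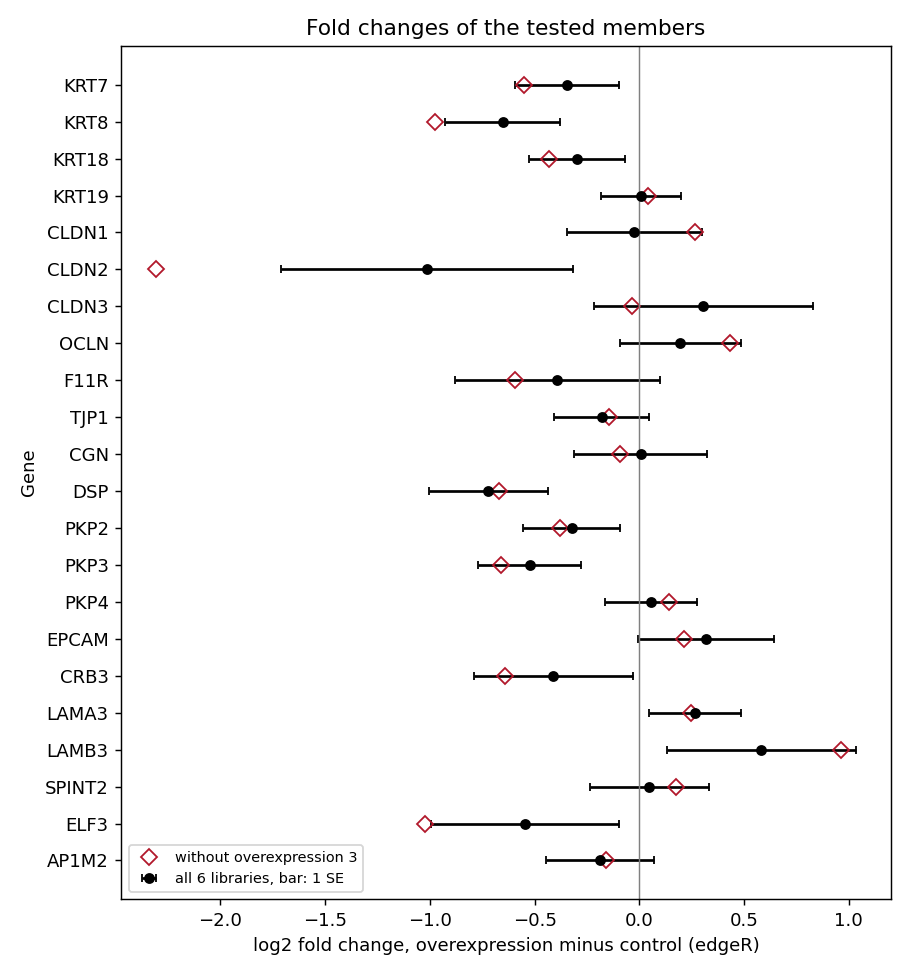
Log2 fold change, overexpression minus control, of the 22 tested genes (points, with bars of 1 SE) and the same value without the library overexpression 3 (diamonds). CLDN2 moves from -1.01 to -2.31 and LAMB3 from 0.58 to 0.96 without that library, and no gene passed the adjusted threshold in either fit.

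Keratins form the intermediate filaments of simple epithelia, with the type II chains KRT7 and KRT8 pairing with the type I chains KRT18 and KRT19. KRT8 (GRCh38, chr12:52897187-52949954, minus strand) was measured at 1265, 1306 and 2248 CPM in overexpression 1, 2 and 3 and at 2473, 2661 and 2438 CPM in controls 1, 2 and 3. Overexpression 1 and 2 were the lowest libraries, overexpression 3 lay just under the controls, and the groups did not overlap. The means were 1606 ± 556 against 2524 ± 119.9 CPM (SD, n = 3 each), a log2 fold change of -0.65 (SE 0.28, edgeR adjusted p = 0.746). Without overexpression 3 it was -0.97 (SE 0.21, edgeR adjusted p = 0.0877), or 1.96-fold lower, and without overexpression 1 it was -0.51. KRT7 gave 1577, 2058 and 2663 CPM against 2732, 2627 and 2641 CPM, so that overexpression 1 and 2 were low and overexpression 3 lay within the controls (log2 fold change -0.35, SE 0.25, edgeR adjusted p = 0.749). KRT18 gave 743, 893 and 1052 CPM against 949, 1298 and 1059.7 CPM, with overlapping groups (-0.30, SE 0.23, edgeR adjusted p = 0.751). KRT19, a type I keratin without a tail domain, differed least, at 93.8, 107 and 93.3 CPM against 98.2, 113 and 80.8 CPM (0.01, SE 0.19). Summed, the 4 keratins took 0.365%, 0.448% and 0.618% of counted reads in overexpression 1 to 3 and 0.606%, 0.690% and 0.594% in controls 1 to 3. The ratio of KRT8 to KRT18 in RPKM was 0.796, 0.684 and 0.999 in overexpression and 1.22, 0.959 and 1.076 in controls. It was lowest in overexpression 1 and 2.

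Keratin counts carry an uncertainty of their own, because KRT8 and KRT18 have many processed pseudogenes and the handling of multiply mapped reads is not given in the sources used here. Rows of 50 KRT8 pseudogenes together held 15.05% to 36.32% as many counts as KRT8 itself, and 67 KRT18 pseudogenes held 4.37% to 9.62% as many as KRT18. The KRT8 pseudogene counts were 7570, 5065 and 7301 in overexpression 1 to 3 and 5586, 7376 and 7619 in controls 1 to 3. Their share of KRT8 was highest in overexpression 1 and 2, the libraries with the lowest KRT8. With these counts added, the KRT8 log2 fold change was -0.55 (SE 0.25, edgeR adjusted p = 0.746) and that of KRT18 -0.27. The fit without overexpression 3 was not repeated with these counts. KRT8 and KRT18 are neighbours on chromosome 12 on opposite strands and share 525 exon bases. The library kit named in the labels does not mark strand, so reads from that stretch cannot be assigned with certainty.

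**Figure D3:**
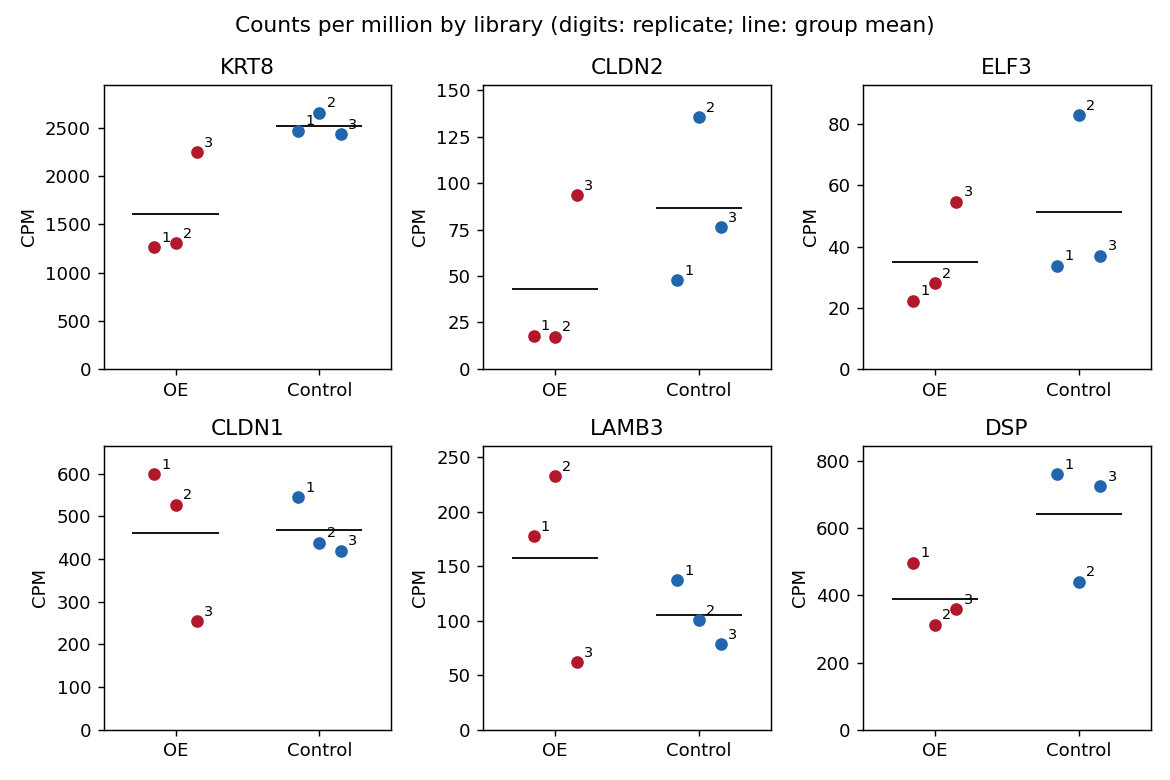
CPM in each of the 6 libraries for KRT8, CLDN2, ELF3, CLDN1, LAMB3 and DSP, 1 panel per gene, with points numbered by replicate and the group mean as a line. Overexpression 1 and 2 are lowest for KRT8, CLDN2 and ELF3 and highest for LAMB3, and overexpression 3 lies below the control range for KRT8, CLDN1, LAMB3 and DSP and inside it for CLDN2 and ELF3.

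Of the 6 claudin and occludin genes, 4 were tested, 2 fitted higher and 2 lower, and none passed. CLDN2 (chrX:106900164-106930861, plus strand), which forms cation- and water-permeable pores, was the gene of the set with the largest SE, at 17.8, 17.2 and 93.4 CPM in overexpression and 47.7, 136 and 76.4 CPM in controls. Overexpression 1 and 2 were the lowest of the 6 libraries, and overexpression 3 exceeded 2 of the 3 controls. The log2 fold change was -1.01 (SE 0.70, edgeR adjusted p = 0.749), 2.02-fold lower, and without overexpression 3 it was -2.31 (SE 0.45, edgeR adjusted p = 0.0796), 4.94-fold lower. In the other direction it was -0.54 without control 2, -0.65 without overexpression 1 and -0.64 without overexpression 2. CLDN1 gave 599, 527 and 254 CPM against 545, 439 and 419.8 CPM, with overexpression 1 the highest library and overexpression 3 the lowest. Its log2 fold change of -0.02 (SE 0.32) became 0.27 without overexpression 3 and also turned sign without control 1. The ratio of CLDN1 to CLDN2 in RPKM was 31.4 and 28.5 in overexpression 1 and 2, 2.53 in overexpression 3, and 10.6, 3.01 and 5.11 in the controls. The barrier-forming and the pore-forming claudin were thus most unequal in overexpression 1 and 2. Control 2, the control with the most SNHG5, had the lowest ratio of the controls, and a link of the ratio to SNHG5 was not tested. OCLN, which encodes occludin, was at 20.4, 19.1 and 10.8 CPM against 14.3, 16.6 and 13.1 CPM (0.20, SE 0.29, edgeR adjusted p = 0.847). CLDN3 was barely detected, at 0.667, 1.24 and 1.69 CPM against 0.533, 1.51 and 0.862 CPM (0.31, SE 0.52), and its sign turned without overexpression 3.

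Among the junctional adhesion molecule and plaque genes, F11R encodes JAM-A, TJP1 encodes ZO-1, and CGN encodes cingulin, which links the plaque to actomyosin. TJP1 was at 512, 425 and 429.7 CPM against 594, 386 and 568 CPM, with control 2 the lowest library (-0.18, SE 0.23, edgeR adjusted p = 0.824). CGN was at 4.85, 4.0 and 5.36 CPM against 6.46, 4.13 and 3.57 CPM, and its group means were nearly equal (4.74 ± 0.684 and 4.72 ± 1.53 CPM, SD). F11R was at 5.64, 23.7 and 21.4 CPM against 17.0, 27.7 and 21.8 CPM, so that its log2 fold change of -0.39 (SE 0.49) rested on overexpression 1 and was 0.03 without it. F11R shares 36.6% of its exon bases with the same-strand annotation AL591806.3, which had 0 counts in each library.

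The desmosome plaque gave the smallest p of the set. DSP (chr6:7541575-7586717, plus strand) encodes desmoplakin, the link to keratin filaments, and was at 497, 313 and 359 CPM in overexpression and 761, 440.3 and 725 CPM in controls. The groups overlapped through overexpression 1, which lay above control 2, although each overexpression library was below the control of its own number (-0.61, -0.49 and -1.01 on the log2 scale). The means were 389.7 ± 95.6 and 642 ± 176 CPM (SD, n = 3 each), a log2 fold change of -0.72 (SE 0.28, edgeR adjusted p = 0.743), or 0.355 with the replicate block. Leaving out any 1 library gave values from -0.93 to -0.58. PKP3, the plakophilin widespread in epithelia, was at 28.0, 41.9 and 45.5 CPM against 53.6, 66.1 and 46.2 CPM. The groups did not overlap, by a narrow margin between overexpression 3 and control 3 (-0.52, SE 0.25, edgeR adjusted p = 0.746). PKP2 was at 22.5, 18.6 and 22.9 CPM against 28.8, 20.4 and 30.9 CPM, with overlap through control 2 (-0.32, SE 0.23). PKP4, an armadillo protein found at adherens junctions as well as desmosomes, was at 127, 114 and 99.5 CPM against 134, 85.1 and 108 CPM (0.06, SE 0.22). Of the 4, DSP, PKP2 and PKP3 were fitted lower and PKP4 higher. In bulk RNA, fewer cells expressing a gene and less RNA per cell cannot be told apart.

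EPCAM, a homotypic adhesion molecule, was at 3.28, 3.57 and 4.19 CPM against 2.27, 4.0 and 2.59 CPM, with overlapping groups (0.32, SE 0.33, edgeR adjusted p = 0.795). CRB3, an apical polarity protein of the Crumbs complex, was at 0.971, 0.873 and 1.40 CPM against 1.27, 1.84 and 1.23 CPM (-0.41, SE 0.38, edgeR adjusted p = 0.776).

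The laminin-332 chains LAMA3 and LAMB3 were both fitted higher, and neither passed the test. LAMB3 (chr1:209614870-209652466, minus strand), the beta chain, was at 178, 233 and 62.2 CPM in overexpression and 137, 101 and 78.3 CPM in controls. Overexpression 1 and 2 were the highest libraries and overexpression 3 the lowest, so the 3 control values lay between them. The log2 fold change was 0.58 (SE 0.45, edgeR adjusted p = 0.751), and without overexpression 3 it was 0.96 (SE 0.28, edgeR adjusted p = 0.138), 1.95-fold higher. It was 0.18 without overexpression 2, the lowest of the values with 1 library left out, and 0.41 without control 3. LAMA3, the alpha chain, was at 59.0, 52.5 and 57.6 CPM against 47.5, 35.4 and 57.8 CPM, and overexpression 3 did not stand apart (0.27, SE 0.22, edgeR adjusted p = 0.755). Per length, LAMB3 exceeded LAMA3 in each library, by 9.43, 13.9 and 3.38 times in overexpression and 9.03, 8.89 and 4.24 times in controls. These ratios depend on the annotated exon lengths, 14678 bases for LAMA3 and 4688 for LAMB3. In CPM, LAMB3 also exceeded LAMA3 in each library, but by less. LAMA3 had a narrower range over the libraries than LAMB3.

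**Figure D4:**
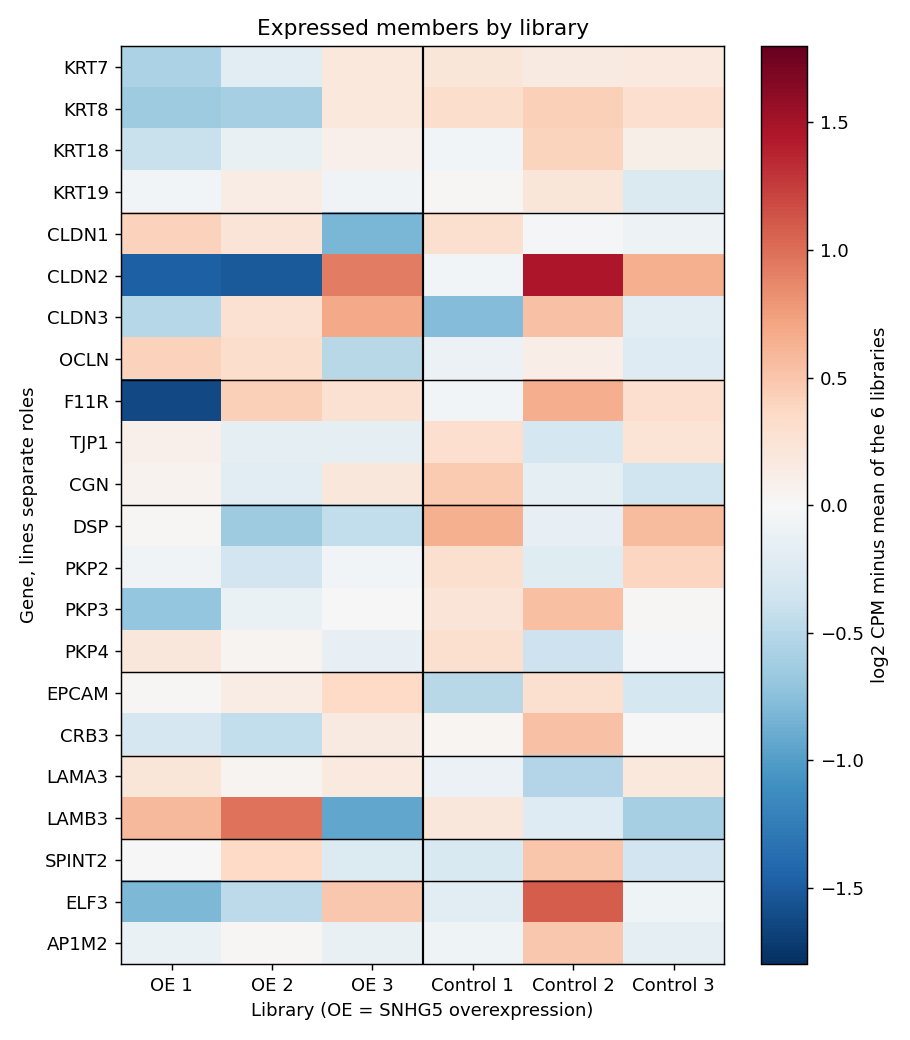
Log2 CPM of the 22 expressed genes in each library as the difference from the gene's mean over the 6 libraries, with genes ordered by role and libraries by group. The columns for overexpression 1 and 2 show low KRT8, CLDN2 and ELF3 and high LAMB3, and the column for overexpression 3 shows the opposite for CLDN2, ELF3 and LAMB3.

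SPINT2, a Kunitz-type inhibitor of membrane serine proteases, was at 283, 361 and 239 CPM against 234, 398 and 222 CPM, so that library 2 was the highest and library 3 the lowest of each group (0.05, SE 0.28, edgeR adjusted p = 0.967). ELF3, an epithelial ETS transcription factor, was at 22.3, 28.1 and 54.7 CPM against 33.7, 82.9 and 37.0 CPM. Overexpression 1 and 2 were again the lowest libraries and control 2 the highest (-0.55, SE 0.45, edgeR adjusted p = 0.755). The value was -1.02 without overexpression 3 and -0.01 without control 2. AP1M2, the epithelial clathrin adaptor subunit for basolateral sorting, was at 10.5, 11.6 and 10.4 CPM against 10.9, 16.1 and 10.1 CPM, and its fold change of -0.19 (SE 0.26) turned to 0.05 without control 2.

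The expressed genes were also compared by their log2 CPM over the 6 libraries, as a description, since the libraries share a group structure and a depth scaling. Over 231 pairs, Pearson's r exceeded 0.9 for 9 pairs and was below -0.9 for 2. No pair passed Benjamini-Hochberg adjustment of the exact permutation p, the smallest being 0.284 for r and 0.321 for Spearman's rho. The closest pair was KRT18 and ELF3, with r = 0.95 (exact permutation p = 0.00694, adjusted 0.284) and rho = 0.94 (exact permutation p = 0.0167, adjusted 0.516) over the 6 libraries. CLDN2 was most like CRB3, with r = 0.94 (exact permutation p = 0.00417, adjusted 0.284) and rho = 0.94 (exact permutation p = 0.0167, adjusted 0.516). After the 2 libraries farthest from the median of KRT18 or of CLDN2 were left out, r was 0.80 for the KRT18 pair and 0.84 for the CLDN2 pair. KRT8 was most like CLDN2 (r = 0.93, rho = 0.71), KRT7 like KRT8 (r = 0.92, rho = 0.60), PKP3 like KRT18 (r = 0.91, rho = 0.83), and DSP and PKP2, both of the desmosome plaque, like each other (r = 0.91, rho = 0.77). For these 4 pairs the adjusted exact permutation p was 0.284 for r and from 0.516 to 0.716 for rho. Without the 2 libraries farthest from the median of KRT8, KRT7, KRT18 or DSP, r was 0.28, -0.23, 0.13 and 0.55 for these pairs in turn. Leaving out the extreme libraries of a gene tends to lower r, so how far each pair rests on them is not settled.

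A list of 62 further genes of the same structures was tested beside the set, and 44 passed the count filter. Of these, 19 were fitted higher and 25 lower (median -0.05 on the log2 scale), and 0 passed the edgeR threshold, with or without the replicate block. At an unadjusted p under 0.05, edgeR gave 3 of the 44 higher, against 2.09% of all genes, and 1 lower, against 4.41%. Those higher were EVPL, CXADR and DSG2, the last of them named after its value was seen, and the lower one was CLDN23. Groups did not overlap for 1 of the 44 with overexpression above and 1 below, against 6.04% and 7.52% of all genes. By structure, 8 of 14 tight junction, 5 of 7 desmosome, 4 of 11 hemidesmosome and laminin, 1 of 5 keratin and 1 of 7 protease, regulator and trafficking genes were fitted higher. CLDN23, a claudin, was at 1.94, 1.38 and 6.64 CPM against 8.20, 16.1 and 15.9 CPM, and the groups did not overlap. Its log2 fold change was -2.00 (SE 0.59, edgeR adjusted p = 0.480). It passed the test only without overexpression 3 (-3.0, edgeR adjusted p = 0.0348) and with DESeq2. Over all genes, these settings also gave the most calls. EVPL, which encodes envoplakin of the desmosome plaque, was at 21.9, 21.0 and 23.7 CPM against 13.7, 8.99 and 15.6 CPM, also without overlap (0.80, SE 0.26, edgeR adjusted p = 0.555). CXADR, a junctional receptor, was at 36.7, 36.8 and 13.9 CPM against 19.2, 13.2 and 11.9 CPM, with overexpression 1 and 2 high and overexpression 3 within the controls (0.98, SE 0.40, edgeR adjusted p = 0.743). KRT81, a hair keratin gene, was at 2359.9, 2813 and 3442 CPM against 3228, 4373 and 3427 CPM (-0.36, SE 0.25, edgeR adjusted p = 0.749), a value made uncertain by its near-identical copy KRT86.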

How the data were processed

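RNA of A549 cells was measured in 6 libraries by paired-end sequencing. Per the labels, RNA was column-extracted and libraries came from a TruSeq RNA kit, which does not mark strand. The submitters' processing notes name FastQC, the aligner HISAT2 and the build GRCh38. Which program counted reads, and with what strand setting, is not given in the sources used here. Raw counts per gene and library were deposited by the authors beside FPKM values, which the authors scaled by library total and gene length. The counts alone were tested, and the FPKM values were not used. Members were matched by symbol, and 29 of 30 lay at the same position in GENCODE release 29, the exception being LAMA3. The exon lengths of all genes, LAMA3 included, were taken from that release.

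Counts were fitted with edgeR 4.0.16 (R 4.3.3; TMM, filterByExpr, robust quasi-likelihood test, two-sided, Benjamini-Hochberg over 15631 genes, threshold 0.05). Alternatives used limma-voom (limma 3.58.1) and DESeq2 1.42.0. CPM uses TMM-scaled totals, RPKM the union of annotated exons, and log2 CPM a prior count of 2. SE is the log2 fold change over the root of the F statistic. The procedure was tested on simulated counts with changes far larger than those of the set in the main fit. That test therefore does not bear on detecting changes of the size seen here. The detection floors cover counting error only, while the SE includes the spread between libraries.

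Libraries with the same replicate number deviated together (correlations 0.35, 0.16 and 0.29, against -0.34 to 0.12 for other combinations). Deviations from a group mean sum to 0, so these correlations are not independent of each other. The main fit was unpaired. Same-numbered libraries were treated as pairs only in the replicate block fit and in the within-pair differences, on the basis of the labels' shared numbers and this check. Replicates differed by a chi-square of 23.9 to 85.7 per degree of freedom, well above sampling noise. The members and lists were chosen with earlier results of these data known. All members are named, with SNHG5 and the 2 companion genes of smallest p in each direction, and a few genes of the lists are not reported here. Likeness was described where r exceeded 0.9.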

Additional observations from a re-analysis of the deposited data

How the results depend on the processing

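All 266 alternative results of the tested genes stayed on the same side of the threshold, with a lowest adjusted p of 0.0796, and 18 of them turned sign, in AP1M2, CGN, CLDN1, CLDN3, F11R, KRT19, PKP4 and SPINT2, whose log2 fold changes were mostly near 0. Leave-one-out values for the median over the tested genes ran from -0.27 to -0.09, and the replicate block gave -0.16. Numbers of expressed genes were 18 at 5 CPM in 3 libraries and 20 at 1 CPM in all 6. CLDN3 and CRB3 were not tested under the stricter filter. Over all genes, 4 were called higher, 20 with DESeq2, and 0 to 20 with a library left out. For lower, 16 were called, 69 when the replicate block was added, 72 without a filter, 246 by DESeq2, and 0 to 144 with a library left out. Without overexpression 3 the counts were highest, and without overexpression 1 or 2 or control 2 or 3 they were 0 or 1. Of companion genes, 0 were called lower and 1 (CLDN23) with DESeq2, and 0 to 1 with a library left out. The replicate block changed no call of the set. The cause of these shifts was not tested. Among the tested genes, low counts limit CLDN3 and CRB3 most.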
